A study of Homo sapiens with 6 samples.

Results

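The human mitochondrial genome is transcribed into a small set of rRNAs, mRNAs and tRNAs, and their levels were described here in cells labelled U-937 with and without a knockout of FOXO3A. The members are the rows of the deposited expression table whose gene name holds a part beginning with MT-, which gave 30 of 56418 rows. These rows name all 37 genes that GENCODE release 29 places on the mitochondrial chromosome, namely 13 protein-coding genes, 2 rRNA genes and 22 tRNA genes. The series holds 6 RNA sequencing libraries. In 3 control libraries the genotype is given as WT, and in 3 libraries it is given as FOXO3A knock-out, made with small guide RNAs. All 6 are labelled as the cell line U-937, an acute myeloid leukemia cell in the labels' words, grown in the same serum-containing medium. The sources used here give neither the guide sequences nor the treatment of the control cells, nor whether the knockout cells were a clone or a pool. Values are FPKM, fragments scaled by transcript length and library size, so their unit is per length, although very short transcripts and rows that join genes limit a comparison of levels.

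Both strands of mitochondrial DNA are transcribed into long RNAs that run through many genes, and most genes lie directly next to a tRNA. Ribonuclease P and ELAC2 cut the precursors at the tRNA ends, which frees the rRNAs and mRNAs between them. The small-subunit rRNA MT-RNR1 and the large-subunit rRNA MT-RNR2 lie nearest to the heavy-strand promoters. The protein-coding genes encode subunits of complexes I, III and IV of the respiratory chain and of the ATP synthase. FOXO3 is a forkhead transcription factor downstream of PI3K and AKT signalling, and in other cell types part of it has been reported inside mitochondria together with SIRT3 and the mitochondrial RNA polymerase POLRMT.

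Control libraries held an estimated 4.37 to 5.71 gigabases of aligned sequence and knockout libraries 4.26 to 4.79. The targeted gene FOXO3 was at 4.22, 3.63 and 4.27 FPKM in control and 3.93, 4.13 and 3.45 FPKM in knockout libraries, with overlapping groups (log2 fold change −0.06, limma adjusted p = 0.731). A whole-gene level does not test an edited site, so directions are given by the libraries' labels. Of 12 monocyte markers with a row of their own, 11 were below a mean of 1 FPKM, CD14 among them at 0.137 and CSF1R at 0.0026, while all 8 such T cell markers were at 1 FPKM or more. The summed monocyte markers lay between 2.23 and 2.95 FPKM in control and between 3.29 and 3.70 in knockout libraries, against 590.9 to 669.9 and 659.8 to 718 FPKM for the T cell markers. The transcripts therefore go against the myeloid label in both groups. The second control library stood apart in some RNAs that lack a poly(A) tail. RN7SL1 was at 112 FPKM there against 2.44 to 4.46 in the other libraries, and RN7SL2 at 119.8 against 1.22 to 2.19. Other such RNAs did not set it apart. RN7SK was at 0.810 FPKM there against 0.783 in the first control. The row of RNU2-2P was at 14.08 against 14.14 in the third knockout library. Of the 19 rows of such RNAs, 7 were tested and 0 passed. The labels do not tie the libraries to separate cultures, so the spread that a p-value measures here may be technical. In bulk RNA, fewer cells of a type and less RNA per cell cannot be told apart.

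The stretch of the heavy strand around MT-RNR1 is shown first because the row that passed the test lies there. In GENCODE 29 on GRCh38, MT-TF, the tRNA for phenylalanine, spans chrM:577-647, MT-RNR1 spans chrM:648-1601 and MT-TV, the tRNA for valine, spans chrM:1602-1670, all on the plus strand and with 0 bases between neighbours. The first and last 60 bases of MT-RNR1 are therefore the bases exposed by cutting the tRNAs out. Capitals mark the anticodon of each tRNA, and T stands for U.
MT-TF: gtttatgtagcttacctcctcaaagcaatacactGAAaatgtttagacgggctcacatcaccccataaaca
MT-RNR1, first bases: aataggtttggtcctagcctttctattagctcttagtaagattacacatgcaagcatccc
MT-RNR1, last bases: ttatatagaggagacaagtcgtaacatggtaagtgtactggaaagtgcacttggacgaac
MT-TV: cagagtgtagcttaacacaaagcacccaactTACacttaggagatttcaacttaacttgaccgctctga

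Of the 30 mitochondrial rows, 28 reached a mean of 1 FPKM and entered the test, limma on log2(FPKM + 1) over all 11221 rows of the table at that level. MT-RNR1 alone rose past the adjusted threshold of 0.05, 1 row of 28, where 1.60% of all tested rows were called higher. By limma, 0 mitochondrial rows were called lower, where 1.41% of all tested rows were. At an unadjusted p below 0.05 there were 5 rows of the 28, none of them with a log2 fold change below 0, where 25.6% of all tested rows reached that p, so this count does not set the members apart. Log2 fold changes were above 0 in 16 rows and below 0 in 12, where 53.3% and 46.7% of all tested rows were, with a median of 0.07 against 0.02 over all tested rows. The knockout libraries lay entirely above the controls in 4 rows and entirely below them in 2, while 17.8% and 14.8% of all tested rows did so. The rows fall into 2 that hold an rRNA, 7 that hold mRNAs, 17 of tRNA and 4 assembled by the authors' pipeline without an annotated transcript. More than 1 gene name is joined in 5 rows, not always of neighbouring genes, and these are given as rows and not as single genes.

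**Figure D1:**
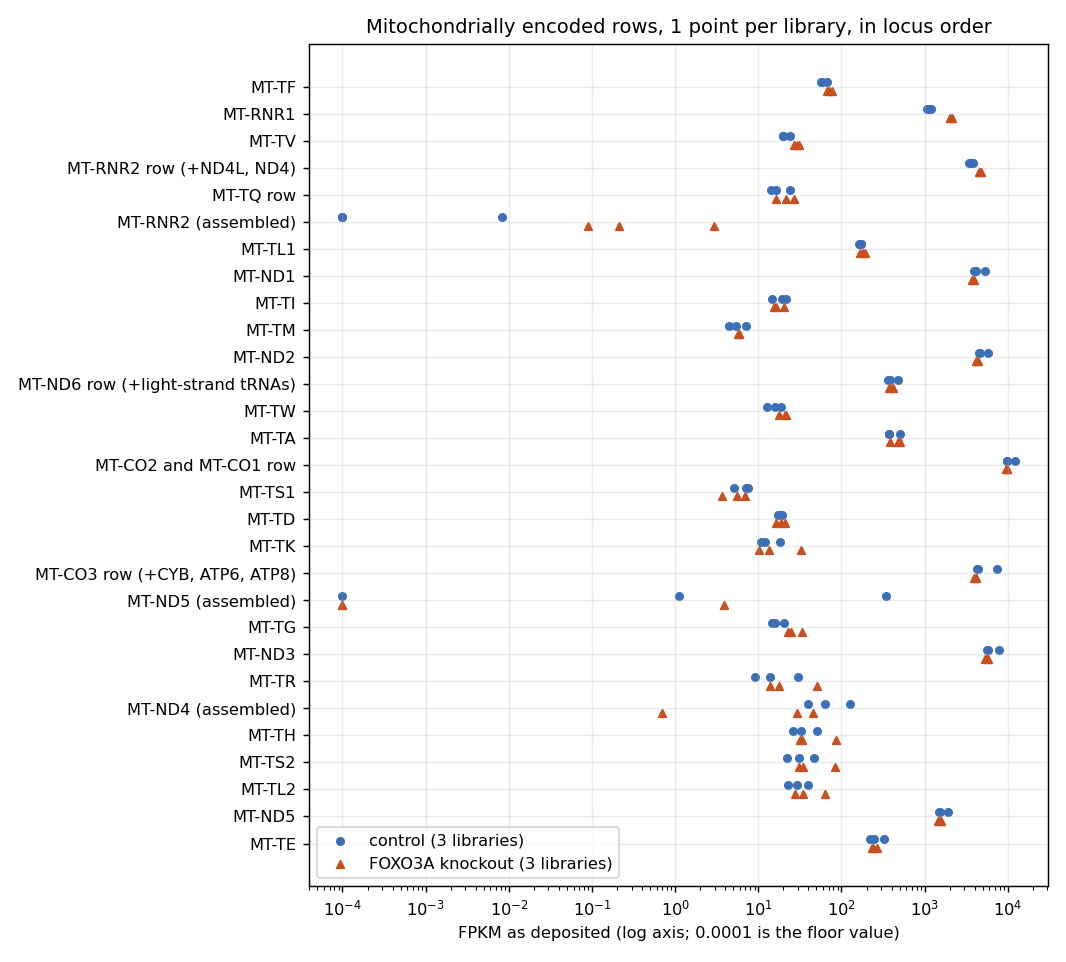
FPKM of 29 mitochondrial rows on a log axis, 1 point per library, with circles for the 3 control and triangles for the 3 knockout libraries; the assembled MT-CYB row, at the floor in all 6 libraries, is left out. MT-RNR1 is at 1080.5 to 1182 FPKM in control and at 1993 to 2162 in knockout libraries, while the rows with mRNAs have their highest value in a control library.

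**Figure D2:**
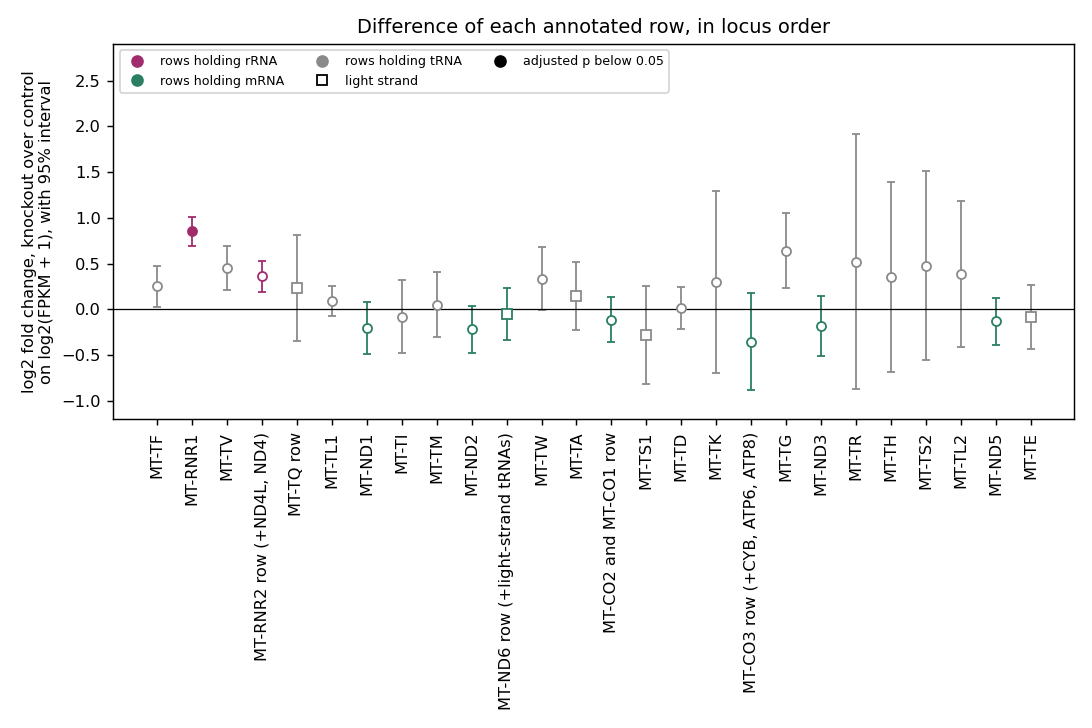
Log2 fold change of each tested row with an annotated transcript, knockout over control on log2(FPKM + 1), with its 95% interval from limma, in locus order. The filled point is MT-RNR1 at 0.85, and open points, all others, missed the adjusted threshold.

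MT-RNR1 encodes the rRNA of the small mitochondrial ribosomal subunit. It stood at 1080.5, 1182 and 1147 FPKM in control and at 1998, 1993 and 2162 FPKM in knockout libraries. All 3 knockout libraries were above all 3 controls, and the spread within each group was narrow. The mean rose from 1137 ± 51.5 to 2051 ± 96.3 FPKM (SD, n = 3 each), 1.80-fold, and limma put the log2 fold change at 0.85 (SE 0.066, 95% interval 0.69 to 1.01, adjusted p = 0.00362). On FPKM, an exact permutation test (two-sided) gave p = 0.1, which is the smallest it can give with 3 libraries a group. These FPKM correspond to a mean coverage of 5010.3 to 6744 aligned bases per position in control and 8504 to 10365 in knockout libraries, so counting error is small beside the spread between libraries. Per the labels' protocols the libraries were made with a kit for mRNA. How fully it captured this rRNA in either group was not tested. With each library left out in turn the log2 fold change was 0.81 to 0.88 and the call held.

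MT-RNR2, the rRNA of the large subunit, shares its row with MT-ND4L and MT-ND4, subunits of complex I, and with an assembled transcript that carries the name MT-CO1. The value of this row is a mean over the joined length of 3227 bases of MT-RNR2, MT-ND4L and MT-ND4, so the rRNA and the mRNA in it cannot be told apart. The row was at 3545, 3852 and 3383 FPKM in control and at 4539, 4577 and 4697 FPKM in knockout libraries. The groups did not overlap, yet the row missed the threshold narrowly. Its means were 3593 ± 238 and 4604 ± 82.9 FPKM (SD, n = 3 each), 1.28-fold, and limma put the log2 fold change at 0.36 (SE 0.069, adjusted p = 0.0509). Without the second control library the row passed, at a log2 fold change of 0.41 and a limma adjusted p of 0.0272. With any other library left out it missed the threshold, at limma adjusted p of 0.0620 to 0.191.

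The tRNAs that flank the rRNAs lie on the same precursor. MT-TF, upstream of MT-RNR1, was at 58.0, 56.1 and 67.1 FPKM in control and 77.8, 66.9 and 71.6 in knockout libraries, and the groups overlapped by a narrow margin (log2 fold change 0.25, limma adjusted p = 0.162). MT-TV, between the rRNAs, was at 24.0, 19.99 and 19.6 FPKM in control and 31.3, 27.2 and 29.4 in knockout libraries. Its groups did not overlap, and it missed the threshold (log2 fold change 0.45, SE 0.099, limma adjusted p = 0.0633). It passed without the first control library, at 0.54 with a limma adjusted p of 0.0313. In that run calls over all rows went from 337 to 932. With any other library left out MT-TV missed the threshold, at limma adjusted p of 0.133 to 0.183. MT-TL1, a leucine tRNA at chrM:3230-3304 just after MT-RNR2, holds the sequence that the termination factor MTERF1 binds.
MT-TL1: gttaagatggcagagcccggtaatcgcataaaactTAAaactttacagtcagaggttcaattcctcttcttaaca
MT-TL1 was at 163, 170.0 and 172 FPKM in control and at 168, 192 and 182 FPKM in knockout libraries, with overlapping groups (log2 fold change 0.10, 95% interval −0.07 to 0.26, limma adjusted p = 0.414). In every library MT-TL1 was far below the rows on either side of it, at most 192 FPKM against at least 3383 for the row of MT-RNR2 and at least 3734 for MT-ND1. The tRNAs are 59 to 75 bases long, shorter than the most frequent aligned length of 282 bases taken as a read pair, and the part of length in these low values was not tested.

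The 7 rows with mRNAs all had log2 fold changes below 0, from −0.35 to −0.05 with a median of −0.18, and 0 of them passed the test (limma adjusted p 0.258 to 0.797; 0 at an unadjusted p below 0.05). Under the 4 other scalings the 6 heavy-strand rows stayed below 0, except that the row of MT-CO1 and MT-CO2 and MT-ND3, the highest rows of every library, showed no difference by quantiles, which give rows of equal rank equal values. The row of MT-ND6 was above 0 when libraries were scaled to their mitochondrial sum. Scaled by quantiles, MT-ND1 and MT-ND5 were called lower. Values then follow rank alone, and the row of MT-RNR2 lay below MT-ND1 in every control and above it in every knockout library. Its ratio to MT-ND1 was 0.730 to 0.905 in control and 1.16 to 1.24 in knockout libraries. Every mRNA row had its highest value in the second control library, which stood apart in some RNAs without a poly(A) tail. The part of this library in these differences was not tested. Without that library the 6 heavy-strand rows had log2 fold changes between −0.10 and −0.0029, and the row of MT-ND6 was at 0.07.

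Among the complex I genes, MT-ND1 was at 3917, 5275 and 4133 FPKM in control and 3734, 3939 and 3801 FPKM in knockout libraries (log2 fold change −0.20, limma adjusted p = 0.327). MT-ND2 was at 4481, 5745 and 4585 FPKM in control and 4214, 4349.7 and 4111 FPKM in knockout libraries (−0.22, limma adjusted p = 0.258). The knockout libraries of MT-ND2 all lay below the controls, whereas the ranges of MT-ND1 overlapped. MT-ND3 was at 5703, 7801 and 5571 FPKM in control and 5366, 5565 and 5708 FPKM in knockout libraries (−0.18, limma adjusted p = 0.445). The annotated MT-ND5 row was at 1508, 1921 and 1539 FPKM in control and 1554, 1515 and 1442 FPKM in knockout libraries (−0.13, limma adjusted p = 0.467). Both of these overlapped between groups. The row of MT-ND5, which also holds an assembled transcript, was the lowest of the heavy-strand mRNA rows in every library.

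The cytochrome oxidase subunits MT-CO1 and MT-CO2 share a row, the highest of all mitochondrial rows. It was at 9719, 12151 and 9667 FPKM in control and 9436, 9687 and 9904 FPKM in knockout libraries, with overlapping groups (log2 fold change −0.11, limma adjusted p = 0.532). A further row joins the oxidase subunit MT-CO3, the ATP synthase subunits MT-ATP6 and MT-ATP8, the complex III subunit MT-CYB, the threonine tRNA MT-TT and a transcript named MT-ND5. It was at 4398, 7514 and 4214 FPKM in control and 3901, 4177 and 4091 FPKM in knockout libraries. All knockout libraries lay below the controls, by a wide margin only against the second control, and the log2 fold change of −0.35 had a limma adjusted p of 0.357 and was −0.09 without that control.

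Only 9 of the 37 genes run in the opposite direction, as light-strand transcripts, and in 5 rows all annotated transcripts were such. MT-ND6, the only protein-coding gene among them, encodes a complex I subunit and shares a row with 4 annotated light-strand tRNAs (MT-TC, MT-TN, MT-TY and MT-TP). The row holds 9 transcripts, 5 of them annotated, and the name MT-TS1 comes from the assembled ones. Its FPKM times length first came out whole at 3490 bases, against 797 bases of annotated transcripts. This row was at 383, 479 and 359.9 FPKM in control and 369, 384 and 416 FPKM in knockout libraries (log2 fold change −0.05, limma adjusted p = 0.797). The groups overlapped, and the row as a whole lay below every heavy-strand mRNA row, which is no measure of MT-ND6 alone. The alanine tRNA MT-TA was at 371, 378 and 499 FPKM in control and 507, 388 and 482 in knockout libraries, and the glutamate tRNA MT-TE was at 244, 324 and 223 and at 238, 268 and 234 FPKM. MT-TS1, for serine, was much lower, at 3.63 to 7.57 FPKM over the 6 libraries. The row of MT-TQ, for glutamine, was at 14.1 to 26.7 FPKM. It holds 4 transcripts, of which only MT-TQ is annotated, and the name MT-RNR2 comes from the assembled ones. Its FPKM times length first came out whole at 1230 bases, against 72 for MT-TQ, so its value is no level of this tRNA. All 5 light-strand rows overlapped between groups, with limma adjusted p between 0.467 and 0.797. The sources used here do not say how reads were assigned to strands, so light-strand tRNAs cannot be told apart from heavy-strand precursors that run across them.

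Of the 17 tRNA rows, 14 had log2 fold changes above 0 and 3 below, 0 passed the test, and 3 had an unadjusted p below 0.05 (MT-TF, MT-TV and MT-TG), a share below the 25.6% of all tested rows. MT-TM and MT-TD changed sign under quantile scaling, and MT-TD also under upper-quartile scaling, while MT-TE turned positive under quantile scaling and when libraries were scaled to their mitochondrial sum. The glycine tRNA MT-TG was at 15.8, 14.7 and 20.2 FPKM in control and 33.1, 22.9 and 25.0 FPKM in knockout libraries. Its groups did not overlap, its means were 16.9 ± 2.93 and 27.0 ± 5.40 FPKM (SD, n = 3 each), and its log2 fold change of 0.64 missed the threshold (limma adjusted p = 0.0883). The gene has 26.5% G and C, against 45.5% in MT-RNR1, and with the trend over GC content and length removed the log2 fold change was 0.10 for MT-TG and 0.93 for MT-RNR1. The tryptophan tRNA MT-TW was at 12.9 to 18.6 FPKM in control and 17.6 to 21.5 in knockout libraries. MT-TI, MT-TM and MT-TD, for isoleucine, methionine and aspartate, lay between 4.44 and 21.3 FPKM in every library with log2 fold changes of −0.08, 0.05 and 0.01. With the trend over GC content and length removed these 3 were at −0.52, 0.21 and −0.65. The trend was fitted over tested rows that include the mitochondrial ones, and the part of GC content in any of these values was not tested.

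A set of 5 heavy-strand tRNA rows varied together between libraries, with groups that overlapped. Their sequences are shown, apart from the lysine tRNA MT-TK, because 3 of them, MT-TH, MT-TS2 and MT-TL2, follow each other directly between MT-ND4 and MT-ND5.
MT-TR: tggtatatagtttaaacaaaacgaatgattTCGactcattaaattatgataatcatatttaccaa
MT-TH: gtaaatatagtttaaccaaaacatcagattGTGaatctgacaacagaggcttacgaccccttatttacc
MT-TS2: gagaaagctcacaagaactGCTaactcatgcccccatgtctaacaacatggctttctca
MT-TL2: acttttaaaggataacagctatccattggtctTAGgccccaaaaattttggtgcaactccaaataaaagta
The histidine tRNA MT-TH was at 51.1, 26.2 and 32.2 FPKM in control and 86.4, 33.5 and 31.4 FPKM in knockout libraries. The serine tRNA MT-TS2 was at 46.7, 22.1 and 30.7 and at 82.7, 34.1 and 31.2 FPKM, and the leucine tRNA MT-TL2 at 40.1, 22.9 and 29.2 and at 63.3, 34.6 and 27.9 FPKM. In each of them the first knockout library was highest and the first control was next. The arginine tRNA MT-TR, upstream of MT-ND4L, was at 30.3, 9.20 and 14.0 FPKM in control and 50.2, 17.6 and 13.9 FPKM in knockout libraries, and MT-TK, upstream of MT-ATP8, at 18.0, 11.995 and 10.9 and at 32.2, 13.6 and 10.2 FPKM. The same order of the first libraries held there, and the groups of all 5 rows overlapped (limma adjusted p 0.498 to 0.679). Without the first knockout library MT-TR, MT-TH and MT-TK had log2 fold changes of −0.02, −0.11 and −0.16. These rows were chosen for description after their values were seen.

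The 4 assembled rows without an annotated transcript were erratic. One named MT-ND4 was at 63.8, 128 and 39.5 FPKM in control and 0.703, 45.5 and 29.3 FPKM in knockout libraries (limma adjusted p = 0.283), low in the first knockout library alone. One named MT-ND5 was at 340.2 FPKM in the first control, at 1.12 in the third control and 3.91 in the third knockout library, and at the floor value of 0.0001 in the others. One named MT-RNR2 was at 0.0895, 2.96 and 0.209 FPKM in knockout libraries and at or under 0.00827 in controls, and one named MT-CYB was at the floor in all 6. The last 2 were not tested, and the annotated transcripts of these genes are in the rows given above.

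The share of all FPKM taken by mitochondrial rows overlapped between the groups, while the shares of rRNA and mRNA rows within it did not. Mitochondrial rows held 16.3%, 19.6% and 15.8% of the summed FPKM in control and 16.5%, 16.7% and 16.5% in knockout libraries. The difference of −0.641 percentage points (17.2 ± 2.08 and 16.6 ± 0.0974, SD, n = 3) turned to 0.547 without the second control library. Within the mitochondrial sum, MT-RNR1 made up 2.89 ± 0.356% in control and 5.51 ± 0.218% in knockout libraries, and both rRNA rows 12.02 ± 1.17% and 17.9 ± 0.347%. The 7 mRNA rows made up 84.5 ± 1.91% and 78.6 ± 0.520%, and the 17 tRNA rows 2.97 ± 0.493% and 3.47 ± 0.448%. Only the tRNA share overlapped between groups among these. Since the shares sum to a fixed total, a higher share of one kind lowers the others, and no p is given for such sums. A joined row counts once with its per-length value, and the rRNA rows include MT-ND4L and MT-ND4. These are therefore shares of FPKM summed by row, not of mitochondrial RNA.

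**Figure D3:**
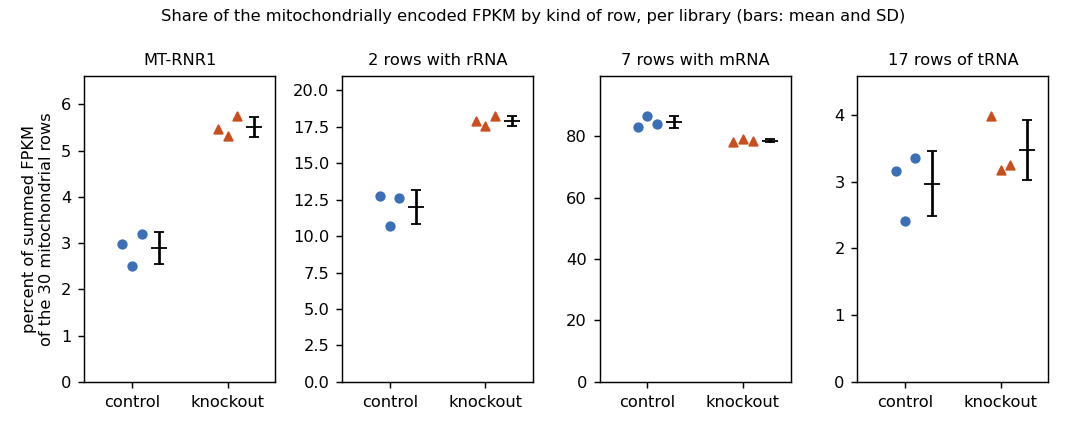
Percent of the summed mitochondrial FPKM held by MT-RNR1, the 2 rRNA rows, the 7 mRNA rows and the 17 tRNA rows, 1 point per library with mean and SD beside them. MT-RNR1 goes from 2.89% in control to 5.51% in knockout libraries and the mRNA rows from 84.5% to 78.6%.

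Ratios within a library do not depend on a scaling by 1 factor per library, though quantile scaling changes them. MT-RNR1 over MT-ND1 was 0.276, 0.224 and 0.278 in control and 0.535, 0.506 and 0.569 in knockout libraries, without overlap. MT-RNR1 over the row of MT-RNR2 was 0.305, 0.307 and 0.339 in control and 0.440, 0.435 and 0.460 in knockout libraries, again without overlap. MT-ND1 over MT-ND2, neighbours on the heavy strand, was 0.898 ± 0.0221 in control and 0.905 ± 0.0192 in knockout libraries (SD, n = 3), with overlapping groups. In each of the 6 libraries the row of MT-CO1 and MT-CO2 was the highest mRNA row and MT-ND3 came next, while MT-ND5 and the row of MT-ND6 came last.

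Nuclear chromosomes carry copies of mitochondrial sequence, and reads of the original and of a close copy cannot always be told apart. The table holds 403 rows named as such copies, of which 352 were at the floor in all 6 libraries and 10 were tested. Past the threshold, 2 copies were higher and 0 lower, against 1.60% and 1.41% of all tested rows. Both are copies of MT-RNR2, and both met the filter of a mean of 1 FPKM only through the knockout libraries. The control means were 0.961 FPKM for the row of MTRNR2L8 and 0.785 for MTRNR2L12, against 1.88 and 1.63 in knockout libraries. Their entry into the test thus depended on the group where they were high, and the 2 calls are given as description only. MTRNR2L8, in a row with MIR4485, was at 0.968, 1.05 and 0.866 FPKM in control and 1.97, 1.94 and 1.73 FPKM in knockout libraries (log2 fold change 0.55, SE 0.085, limma adjusted p = 0.0299). MTRNR2L12 was at 0.713, 0.740 and 0.904 FPKM in control and 1.70, 1.54 and 1.64 FPKM in knockout libraries (0.56, SE 0.085, limma adjusted p = 0.0299). Neither overlapped between groups, and both calls were lost with any library but the first control left out (limma adjusted p 0.0606 to 0.132 and 0.0681 to 0.119). They were also lost when low rows were kept (0.0774 and 0.0769) and when libraries were scaled to their mitochondrial sum (0.130 and 0.146), and that of MTRNR2L12 with the GC and length trend removed (0.0539). MTRNR2L8 matched MT-RNR2 at 93.01% over 1302 aligned bases and MTRNR2L12 at 95.04% over 1048.

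A stretch of 90 bases, positions 7 to 96 of MT-RNR2, is shown beside the copies. Among stretches aligned without a gap, it was picked for the most differences in the closer copy. It therefore understates how close the copies are over their whole alignments. Capitals mark, in MT-RNR2, the positions where either copy differs, and in each copy the positions where it differs from MT-RNR2, 11 in MTRNR2L8 and 10 in MTRNR2L12. They lie at chrM:1677-1766 on the plus strand, chr11:10509093-10509182 on the minus strand and chr3:96618140-96618229 on the minus strand of GRCh38.
MT-RNR2: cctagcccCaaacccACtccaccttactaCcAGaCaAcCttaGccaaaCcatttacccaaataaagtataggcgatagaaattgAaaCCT
MTRNR2L8: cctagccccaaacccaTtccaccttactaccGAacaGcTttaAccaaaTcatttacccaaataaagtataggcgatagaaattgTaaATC
MTRNR2L12: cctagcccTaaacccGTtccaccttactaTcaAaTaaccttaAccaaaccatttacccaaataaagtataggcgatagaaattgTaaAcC
The sources used here do not say how reads that match several places were treated, and their part in the values of the copies was not tested.

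The copies with the highest values form 1 block on chromosome 1, which resembles MT-ND1 to MT-CO3 at 97.58% to 99.15% identity. The row of MTCO3P12, MTATP6P1 and MTATP8P1 was at 1177, 1779 and 1122 FPKM in control and 989, 1119 and 1107 FPKM in knockout libraries (log2 fold change −0.31, limma adjusted p = 0.324). MTND2P28 was at 734, 845 and 672 FPKM in control and 504, 617 and 583 FPKM in knockout libraries (−0.40, limma adjusted p = 0.101). Like MT-ND2 and the row of MT-CO3, these copies had every knockout library below every control. MTCO1P12 was at 392, 511 and 394 FPKM in control and 277, 392 and 245 FPKM in knockout libraries (−0.52, limma adjusted p = 0.166), and MTND1P23 was at 69.8, 70.4 and 61.9 and at 40.9, 53.9 and 55.2 FPKM (−0.43, limma adjusted p = 0.109). None of the 4 passed the test as reported, and MTND2P28 passed it with the GC and length trend removed (limma adjusted p = 0.0497).

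**Figure D4:**
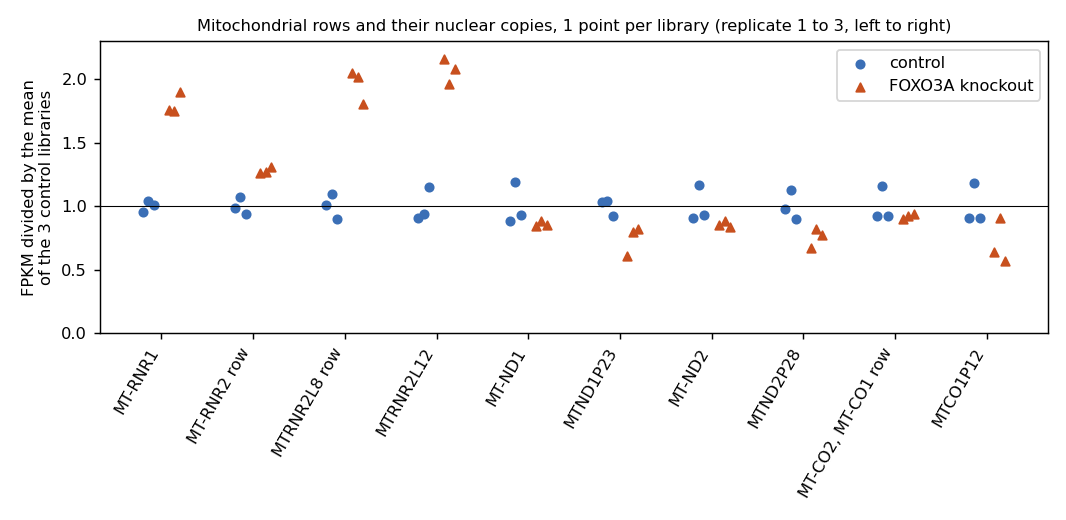
FPKM of mitochondrial rows and of nuclear copies, divided by the mean of the 3 control libraries, 1 point per library. MT-RNR1, the MT-RNR2 row and the copies MTRNR2L8 and MTRNR2L12 have all knockout libraries above the controls, while the copies MTND2P28 and MTND1P23 have them below.

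Nuclear genes that act on mitochondrial RNA and DNA were counted by list, as rows, and 20 of the 74 tested rows join other genes. Their counts stand against 1.60% of all tested rows called higher, 1.41% called lower, 25.6% at an unadjusted p below 0.05, and 17.8% and 14.8% whose knockout libraries lay entirely above or below the controls. Of 9 tested rows of mitochondrial transcription, 3 of them joined, 0 passed, 5 had an unadjusted p below 0.05, and 6 had log2 fold changes above 0 with a median of 0.06. The knockout libraries lay entirely above the controls in 4 of these rows and entirely below in 1. TFB2M, a factor that opens the promoter for the polymerase, was at 16.4, 15.4 and 16.2 FPKM in control and 19.6, 19.0 and 18.0 FPKM in knockout libraries (log2 fold change 0.22, limma adjusted p = 0.108). TFAM, which packages mitochondrial DNA and activates its promoters, was at 14.7, 11.8 and 13.0 and at 18.0, 17.1 and 15.3 FPKM (0.33, limma adjusted p = 0.114). MTERF1, which binds within MT-TL1, was at 0.803, 1.16 and 1.13 and at 1.39, 2.97 and 1.97 FPKM (0.59, limma adjusted p = 0.131). These 3 and the elongation factor TEFM had every knockout library above every control, whereas the polymerase POLRMT had them below, at 8.94, 9.49 and 10.3 FPKM in control and 8.59, 7.10 and 7.57 in knockout libraries (−0.27, limma adjusted p = 0.138).

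Of 22 tested rows of mitochondrial RNA processing, polyadenylation and decay, 7 of them joined, 0 passed, 6 had an unadjusted p below 0.05, 16 had log2 fold changes above 0, and the median was 0.11. The knockout libraries lay entirely above the controls in 6 rows and entirely below in 1. FASTKD3, of the FASTK family of mitochondrial RNA-binding proteins, was at 6.94, 5.95 and 6.72 FPKM in control and 8.89, 9.11 and 8.69 FPKM in knockout libraries (log2 fold change 0.39, limma adjusted p = 0.0527). TRMT10C, a subunit of mitochondrial ribonuclease P, was at 29.7, 25.4 and 23.8 and at 36.6, 37.5 and 32.3 FPKM (0.42, limma adjusted p = 0.0765). PNPT1, the polynucleotide phosphorylase of the mitochondrial degradosome, had a log2 fold change of 0.34 (limma adjusted p = 0.101), and the row with the poly(A) polymerase MTPAP one of 0.29 (limma adjusted p = 0.120). All 4 of these rows had every knockout library above every control. FASTKD3 passed the test with a pseudocount of 10, a mean of at least 5 FPKM or quantile scaling (limma adjusted p 0.0425 to 0.0488). Without the first control library FASTKD3, TRMT10C and PNPT1 passed (limma adjusted p 0.0428, 0.0373 and 0.0320). In that run calls over all rows went from 337 to 932. Of 17 tested rows of rRNA modification and ribosome assembly, 5 of them joined, 0 passed and 3 had an unadjusted p below 0.05. Log2 fold changes were below 0 in 11 of them, with a median of −0.08. In 1 of these rows the knockout libraries lay entirely above the controls, and in 3 entirely below. The methyltransferases TRMT61B and MRM3, which modify MT-RNR2, had log2 fold changes of −0.27 and −0.21 (limma adjusted p = 0.142 and 0.147, the former 0.0253 with the GC and length trend removed), the endoribonuclease YBEY one of −0.47 (limma adjusted p = 0.148) and C12orf65, which acts on stalled mitochondrial ribosomes, one of 0.37 (limma adjusted p = 0.234).

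Of 16 tested rows of mitochondrial DNA maintenance, 3 of them joined, 0 passed and 4 had an unadjusted p below 0.05. Log2 fold changes were above 0 in 9 of them, with a median of 0.06. In 2 of these rows the knockout libraries lay entirely above the controls, and in 3 entirely below. The topoisomerase TOP1MT and the DNA polymerase POLG had log2 fold changes of −0.39 and −0.26 (limma adjusted p = 0.0679 and 0.0720, the latter 0.0494 by quantiles), and ATAD3B and the ribonucleotide reductase subunit RRM2B of 0.26 and 0.50 (limma adjusted p = 0.0980 and 0.124, the latter 0.0326 without the first control library). Of 10 tested rows of regulators of mitochondrial biogenesis, 2 of them joined, 1 was called higher and 0 lower, where 1.60% and 1.41% of all tested rows were. The median was 0.01, with log2 fold changes above 0 in 5 rows and below 0 in 5, and 4 had an unadjusted p below 0.05. In 3 of these rows the knockout libraries lay entirely above the controls, and in 1 entirely below. The row called higher was SIRT1, a deacetylase of PPARGC1A and FOXO proteins. It was at 4.46, 2.54 and 3.81 FPKM in control and 9.30, 9.59 and 8.002 FPKM in knockout libraries. The groups were far apart and the log2 fold change was 1.13 (SE 0.17, limma adjusted p = 0.0296), yet the call was lost without the third control (0.0875) or without a knockout library (0.0808 to 0.122 over the 3), when low rows were kept (0.0688) and when libraries were scaled to their mitochondrial sum (0.0678). GABPA and GABPB1, subunits of nuclear respiratory factor GABP, had log2 fold changes of 0.62 and 0.31 (limma adjusted p = 0.0999 and 0.166), and the mitochondrial deacetylase SIRT3 one of −0.31 (limma adjusted p = 0.106). Over these 5 lists, the medians lay between −0.08 and 0.11, against 0.02 over all tested rows.

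**Figure D5:**
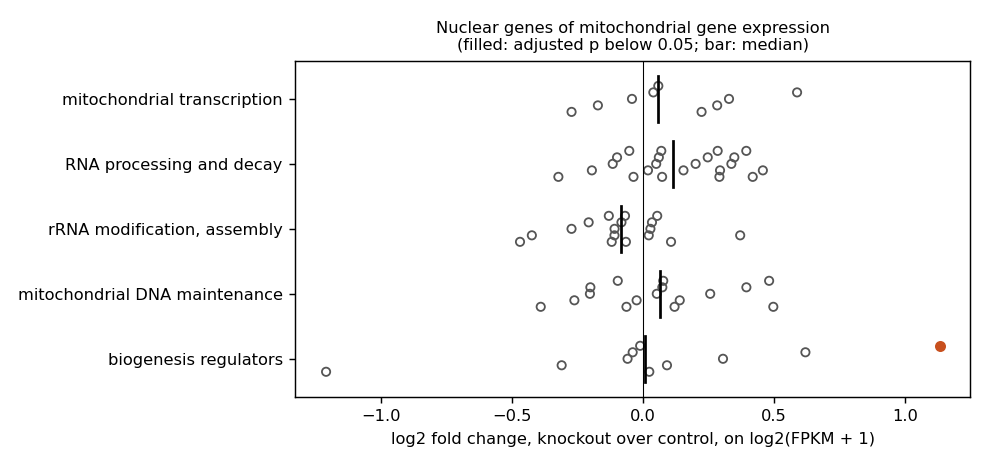
Log2 fold change of each tested row of nuclear genes, knockout over control on log2(FPKM + 1), by list, with a bar at the median of each list. SIRT1 at 1.13 is the filled point, past the adjusted threshold, and the list medians lie between −0.08 and 0.11.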

How the data were processed

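The authors deposited a table of FPKM values, with 1 column for each of 6 libraries, and the unit is named per the file headers. Per the labels' protocols, total RNA went into a SMARTER kit for mRNA. The submitters' processing notes list HTSeq, Cufflinks 2.1.1, Bowtie 0.12.9 and build hg38, without a stated role for each tool. The sources used here do not state the strand setting or the treatment of shared reads. Since FPKM holds no counts, a count model was not used. In 56.6% of 2860 rows of several annotated transcripts, FPKM times joined exon length came out whole in all 6 libraries within 0.05 (2.94% with 1 base added), so a joined row was read as a mean over joined exons. Of 6 mitochondrial rows of several transcripts, all with assembled ones, only the MT-RNR2 row came out whole at its annotated length, 3227 bases. The smallest whole length was 1001 bases for MT-ND5 (1812 annotated), 1230 for the MT-TQ row (72) and 3490 for the MT-ND6 row (797). None was found for the row of MT-CO3 and the row of MT-CO1 and MT-CO2.

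Exact repeats (4865 rows) were dropped. The 11221 rows with a mean of at least 1 FPKM entered 1 model in R 4.3.3 (limma 3.58.1) of log2(FPKM + 1) on group alone. This scale understates the fold change of low rows. The variance followed a trend with the mean, p-values were two-sided, and the threshold was 0.05 after Benjamini-Hochberg adjustment. The script was tested on simulated data. Depth was read from the steps between low values taken as 1 aligned base, and of the low values in each library 68.5% to 72.1% were whole to within 0.1 step. Every mitochondrial row, FOXO3, called list members and up to 4 more of each list by p, and up to 4 copies by level are named. MTRNR2L8 and MTRNR2L12 were named after their values were seen. Members and lists were chosen with earlier results of these data known. Coordinates and sequences are from GENCODE 29 (GRCh38), and copies were aligned with BLAST 2.17.0. Alternatives covered pseudocount, filter, scaling, repeats, variance trend, a replicate block, each library left out and, chosen after seeing the data, removal of a GC and length trend (natural splines, 4 degrees of freedom each). Python 3.11.15, pandas 2.3.3 and matplotlib 3.10.9 made the tables and plots.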

Additional observations from a re-analysis of the deposited data

How the results depend on the processing

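The limits are 3 libraries a group, no counts, an unknown strand and shared-read setting, joined rows, and a second control library that stands apart. MT-RNR1 stayed higher in every alternative run and was called in all but the replicate block (limma adjusted p = 0.0521). The count of mitochondrial rows called higher, 1 as reported, was 2 with a pseudocount of 0.1 or 10, a mean of at least 5 FPKM, scaling to the non-mitochondrial sum, to the mitochondrial sum or by quantiles, and with the GC and length trend removed. It was 0 with the replicate block and 1 to 2 with each library left out. The added row was MT-TV without the first control library and with the trend removed, and otherwise the row of MT-RNR2 (limma adjusted p 0.000106 to 0.0457). The count called lower, 0 as reported, was 2 by quantile scaling (MT-ND1 at −0.19 and MT-ND5 at −0.32) and 0 with each library left out. Same-numbered libraries deviated with correlations of 0.101, −0.0260 and −0.00427, so the numbers were not treated as pairs. With the block the nuclear calls were lost too, at adjusted p of 0.114 (SIRT1 and MTRNR2L8) and 0.121 (MTRNR2L12).

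Over all rows, 337 calls became 145 with no filter, 70 with scaling to the mitochondrial sum, 587 by quantiles, 29 with the replicate block, 640 with the trend removed and 70 to 932 with each library left out, the last without the first control. Upper-quartile scaling gave 191 higher and 254 lower, against 179 and 158 as reported. The all-row median log2 fold change lay between −0.0189 and 0.0870 under the scalings. FOXO3 was at 0.00536 with scaling to the mitochondrial sum and at −0.12 to 0.000274 with each library left out. The mitochondrial share of FPKM differed by −1.36 to 0.547 percentage points with each library left out.

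Of 530 values of 28 mitochondrial rows under alternatives, 500 are counted as keeping direction and call, 2 of them (the row of MT-CO1 and MT-CO2, and MT-ND3, by quantiles) at no difference, and 18 changed sign, in 9 rows not called as reported. Scaled to the mitochondrial sum, the MT-ND6 row was at 0.0303 and MT-TE at 0.00388. By quantiles MT-TM was at −0.0171, MT-TD at −0.0156 and MT-TE at 0.0658, and by upper quartile MT-TD at −0.0318. With the trend removed MT-TD was at −0.65 and MT-TR at −0.16. With each library left out MT-TI was at −0.236 to 0.0281, MT-TM at −0.0849 to 0.202, the MT-ND6 row at −0.138 to 0.0677, MT-TD at −0.0597 to 0.0947, MT-TK at −0.158 to 0.623, the assembled MT-ND5 row at −3.99 to 0.222, MT-TR at −0.0198 to 0.968, MT-TH at −0.11 to 0.617 and MT-TE at −0.192 to 0.0767. The causes were not tested.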
